A study of Mus musculus with 2 samples.

Results

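Genes of the machinery that carries out regulated exocytosis of hormone granules were followed across the cell classes of mouse islets, in wild-type (WT) and Npc1-/- mice. The 35 genes were chosen by symbol, for what their proteins do at the granule and the plasma membrane, from the 31053 genes counted. The choice was made with earlier results of these data known. All 35 were found in the count tables, and 33 reached a level of 20 CPM in at least 1 endocrine class in both libraries. The other members, Rab26 and Cplx1, were near the limit of detection.

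Hormone granules fuse with the plasma membrane when SNARE proteins on both membranes zip together. Rab3 and Rab27 GTPases and their effectors bring granules to the membrane, scaffolds and priming factors of the RIM, Munc13 and CAPS families prepare them for release, and synaptotagmins couple fusion to calcium. In β cells this route releases insulin after glucose-driven calcium entry, and the same families of proteins serve glucagon, somatostatin and pancreatic polypeptide cells.

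Islets came from mice aged 2 weeks. The genotypes were WT and Npc1-/-, a global knockout of the lysosomal cholesterol transporter gene Npc1 that affects every organ as well as the islet, so that a change in an islet cell need not start in that cell. Each genotype was 1 library made from the pooled islets of 3 female mice, dispersed with trypsin. With 1 library per genotype there was no replicate, and cells are not replicates, so that no test was made between genotypes.

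The kept barcodes numbered 4628 in WT and 4269 in Npc1-/-, with a median of 18905 and 21381 UMIs per cell. Each cell was placed by the hormone that took the largest share of its UMIs, at 10% or more. Insulin-led cells (Ins1 and Ins2) numbered 1833 in WT and 1826 in Npc1-/-, glucagon-led cells 1048 and 857, somatostatin-led cells 189 and 141, and PP-led cells (Ppy and Pyy) 411 and 442. Endothelial cells, 445 and 452, were chosen by 4 or more of 8 endothelial markers and served as the class that makes no hormone granules. Markers not used in the choice went with the labels: Mafa was at 423 and 381 CPM in insulin-led cells and at 16.9 or less in the others, Irx2 was at 222 and 213 in glucagon-led cells, and Hhex at 567 and 490.1 in somatostatin-led cells. PP-led cells were a mixed class, with Hhex at 171 and 166. In the somatostatin-led class 182 of 189 and 138 of 141 cells held another hormone at 5% or more of UMIs, and Ppy and Pyy took a median of 10.6% and 11.9%. Npc1 itself was lower in the Npc1-/- library in all of these classes, at 12.5 CPM in WT and 5.43 in Npc1-/- for insulin-led cells. The libraries shared 12 barcode sequences, 3 of them among kept cells.

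Levels are given in CPM, a gene's UMIs in a class scaled to a common total of UMIs, counted after the 6 hormone genes were taken out. Between classes, summed UMIs were compared with edgeR's quasi-likelihood test with the library as a block, adjusted by Benjamini-Hochberg over 13962 genes, at 0.05. A split of insulin-led cells by Ppy and Pyy was fitted separately and adjusted over 14127 genes. These adjusted p-values measure the spread of 2 libraries that also differ in genotype, and nothing says how mice would vary. In a sum over cells, fewer cells with a transcript and less of it per cell cannot be told apart.

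Against insulin-led cells, glucagon-led cells were higher for 7 and lower for 19 of the 34 members that could be tested, where 24.4% of all genes were higher and 25.4% lower. Somatostatin-led cells were higher for 7 and lower for 16, beside 17.5% and 17.9% of all genes. PP-led cells were higher for 6 and lower for 17, beside 19.8% and 20.7%. In each of these contrasts more members were lower than higher, and the share of lower members was above that of all genes. The members were chosen with earlier results of these data known. Such shares and medians, here and below, therefore describe the list and are not a test of it. The median log2 change of the members was -0.29, -0.31 and -0.22 in these 3 contrasts, against 0.01, -0.03 and -0.01 over all genes. Cplx1 had too few UMIs to test. The plot of levels by class shows how far single members departed from this pattern.

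**Figure D1:**
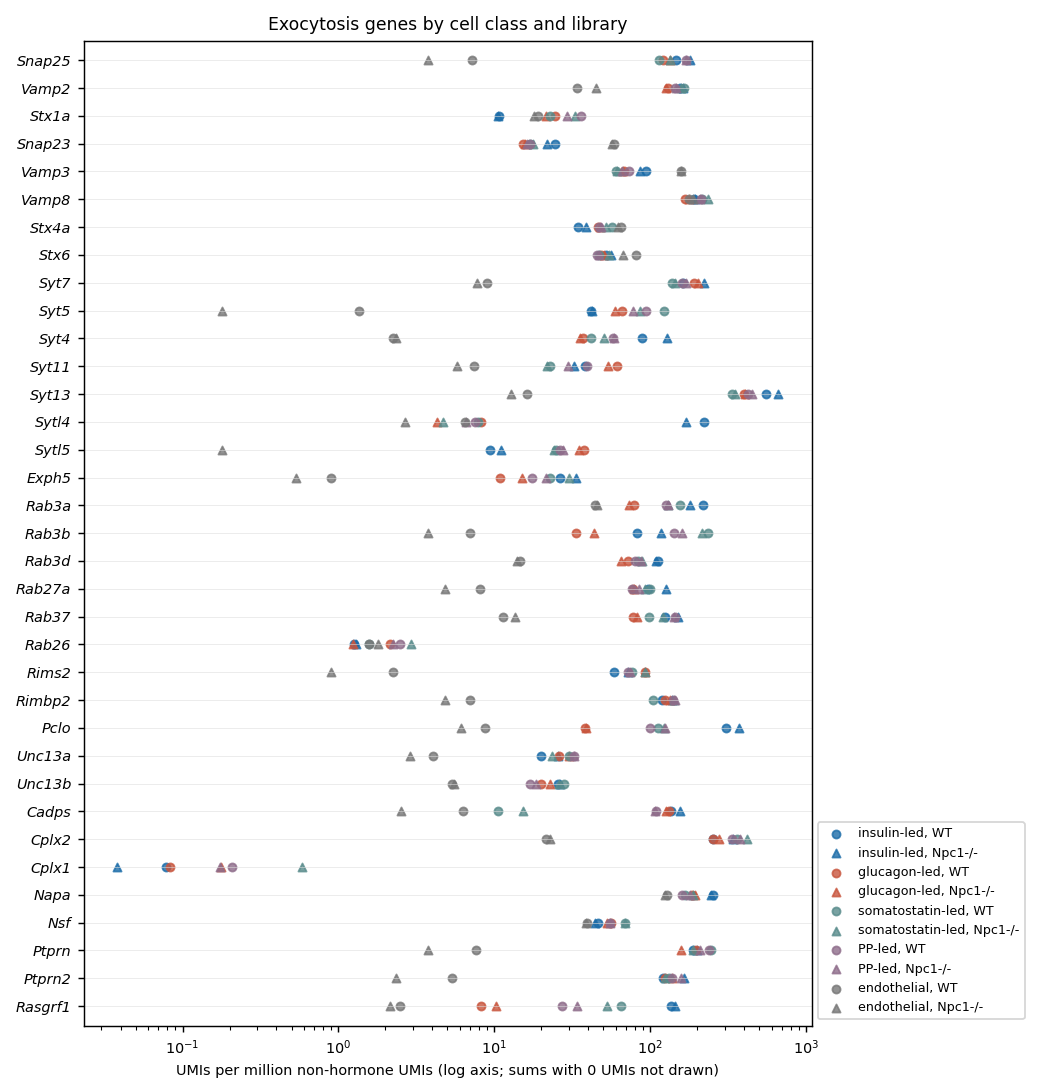
Level of each of the 35 genes, in CPM on a log axis, in each cell class (colour) of the WT (circles) and Npc1-/- (triangles) library. Sytl4 stood at 222 and 170.1 in insulin-led cells and at 8.26 or less in every other class, while most members fell well below the endocrine classes only in endothelial cells.

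Of the Rab27 effectors, Sytl4 was far higher in insulin-led cells than elsewhere, and Sytl5 was lower there. Sytl4 encodes granuphilin, which docks insulin granules at the plasma membrane and restrains their fusion. Its level in insulin-led cells was 222 CPM in WT (exact Poisson 95% interval 217 to 228, for counting error only) and 170.1 in Npc1-/- (165 to 175). In glucagon-led cells it was 8.26 and 4.25, in somatostatin-led cells 7.90 and 4.70, in PP-led cells 7.49 and 6.58, and in endothelial cells 6.50 and 2.68. The insulin-led class stood above every other class in both libraries, with no overlap. The log2 change from insulin-led cells was -5.04 in glucagon-led, -5.12 in somatostatin-led and -4.93 in PP-led cells, with adjusted p of 5.38e-13, 7.35e-11 and 6.40e-12. The remaining Sytl4 signal of the other classes was set beside what insulin transcripts gave there. Taken as a share of all UMIs, Sytl4 in glucagon-led cells was 5.21% of its share in insulin-led cells in WT and 3.38% in Npc1-/-, where Ins1 and Ins2 together were at 2.07% and 1.495%. In endothelial cells the same values were 6.13% and 3.21% for Sytl4 and 3.06% and 1.78% for Ins1 and Ins2.

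Per cell, 83.9% of insulin-led cells in the WT library and 77.2% in the Npc1-/- library held a Sytl4 UMI (Clopper-Pearson 95% intervals 82.1 to 85.5 and 75.2 to 79.1). The share was 8.78% and 5.37% in glucagon-led cells and 6.07% and 3.097% in endothelial cells. Median depth was 30417 and 30094 UMIs in insulin-led cells and 7840 and 10285 in endothelial cells. With each cell thinned to 5000 UMIs, the shares were 38.4% and 31.3% in insulin-led, 3.06% and 1.67% in glucagon-led and 4.02% and 1.43% in endothelial cells. Cells under this depth were left out, 26 and 22 insulin-led, 35 and 16 glucagon-led and 47 and 32 endothelial cells. At equal depth the glucagon-led share was near the endothelial share. Sytl4 was at 5.21% and 3.38% of its insulin-led share of UMIs in glucagon-led cells, above Ins1 and Ins2 at 2.07% and 1.495%. Whether this signal is background was not tested.

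Sytl5, which encodes another synaptotagmin-like Rab27 effector on the same chromosome, had the opposite order. It was at 9.38 and 10.9 CPM in insulin-led cells, 37.7 and 34.8 in glucagon-led, 24.8 and 24.1 in somatostatin-led and 26.2 and 27.4 in PP-led cells. Insulin-led cells were the lowest endocrine class in both libraries. The log2 change was 1.78, 1.11 and 1.27 in the glucagon-led, somatostatin-led and PP-led class, with adjusted p of 7.25e-09, 2.12e-04 and 2.28e-06. In endothelial cells Sytl5 was at 0 of 4463842 UMIs in WT, which allows up to 0.672 CPM, and at 1 UMI in Npc1-/-. Exph5, another effector of Rab27, was at 26.4 and 33.5 CPM in insulin-led cells and at 10.8 and 15.1 in glucagon-led cells. The log2 change of Exph5 there was -1.28, with adjusted p of 2.06e-07. It was also lower in PP-led cells, by a log2 change of -0.76, and did not pass in somatostatin-led cells, where it was at 22.7 and 29.9.

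The promoter windows of 4 members are shown, to set 2 that were highest in insulin-led cells beside 2 that were lowest there, taken from RefSeq on GRCm38.p6, from 250 bases before to 50 after the start. Promoter rows were matched for 25 of the 35 members. Capitals mark matches on either strand to CAGATG (an E-box bound by NEUROD1), CTAATG (an A-box of the kind bound by PDX1) or TGCTGAC (part of a MAF response element). Sytl4 (ENSMUSG00000031255, minus strand) lies at chrX:133936385-133981812 in the GENCODE M21 annotation, and its window covers chrX:133981763-133982062. Sytl5 (ENSMUSG00000054453, plus strand) lies at chrX:9885622-9994543, with its window at chrX:9885371-9885670. Pclo (ENSMUSG00000061601, plus strand) lies at chr5:14514918-14863459, with its window at chr5:14514668-14514967. Stx1a (ENSMUSG00000007207, plus strand) lies at chr5:135023482-135051100, with its window at chr5:135023232-135023531. Sytl4 and Pclo were highest and Sytl5 and Stx1a lowest in insulin-led cells among the endocrine classes.
Sytl4: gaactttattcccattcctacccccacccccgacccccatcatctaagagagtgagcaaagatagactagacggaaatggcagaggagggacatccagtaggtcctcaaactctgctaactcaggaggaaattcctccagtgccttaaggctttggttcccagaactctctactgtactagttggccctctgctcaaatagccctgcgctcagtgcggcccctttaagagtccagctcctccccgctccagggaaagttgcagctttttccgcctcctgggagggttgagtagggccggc
Sytl5: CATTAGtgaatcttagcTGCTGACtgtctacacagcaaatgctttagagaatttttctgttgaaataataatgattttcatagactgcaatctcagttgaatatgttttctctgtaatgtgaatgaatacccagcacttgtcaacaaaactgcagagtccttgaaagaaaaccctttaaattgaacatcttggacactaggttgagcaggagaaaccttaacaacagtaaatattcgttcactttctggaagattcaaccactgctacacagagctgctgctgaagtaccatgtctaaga
Pclo: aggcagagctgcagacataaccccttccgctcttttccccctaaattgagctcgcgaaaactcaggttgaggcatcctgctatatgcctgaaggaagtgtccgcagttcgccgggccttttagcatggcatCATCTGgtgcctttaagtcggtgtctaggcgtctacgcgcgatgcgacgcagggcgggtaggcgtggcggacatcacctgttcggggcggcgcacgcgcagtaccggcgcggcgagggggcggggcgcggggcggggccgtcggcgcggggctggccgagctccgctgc
Stx1a: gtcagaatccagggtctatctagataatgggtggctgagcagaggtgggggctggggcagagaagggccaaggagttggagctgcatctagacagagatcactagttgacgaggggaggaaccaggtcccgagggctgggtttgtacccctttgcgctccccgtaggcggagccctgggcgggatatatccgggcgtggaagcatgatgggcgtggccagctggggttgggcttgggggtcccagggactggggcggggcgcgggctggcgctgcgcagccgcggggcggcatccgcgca
The 2 matches in the Sytl5 window did not overlap, and the Sytl4 and Stx1a windows held none. The Sytl5 window was 37.0% G and C with 1 CG dinucleotide and the Sytl4 window 54.7% with 7, against medians of 52.7% and 7 over all promoters. The Pclo and Stx1a windows were 66.0% and 66.3% G and C, with 35 and 19 CG dinucleotides. CTAATG was in 7.36% of 32851 promoters of this length and in 4 of 28 windows of the members, CAGATG in 17.2% and 3 windows, and TGCTGAC in 4.67% and 1 window, that of Sytl5. TGACGTCA, a cAMP response element, was in 1.79% of promoters and in 1 window, that of Napa, and CAGCACC, part of the RE1 site, in 7.14% and 3 windows, those of Napa, Ptprn2 and Unc13a. A match is a description of letters and not a bound site.

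Scaffolds and priming factors differed by class in several directions. Pclo encodes piccolo, a large scaffold of release sites that binds Rab3 effectors. Its level was 304 and 369.7 CPM in insulin-led cells, 38.2 and 38.9 in glucagon-led, 113 and 122 in somatostatin-led and 99.6 and 123 in PP-led cells. The ranges of insulin-led and other cells did not overlap, and the log2 changes were -3.18, -1.67 and -1.73, with adjusted p of 3.28e-12, 1.62e-08 and 3.50e-09.

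Cadps encodes CAPS1, which primes dense-core granules for fusion. It was at 135 and 155 CPM in insulin-led, 133 and 126 in glucagon-led and 108 and 107.5 in PP-led cells, but at 10.5 and 15.3 in somatostatin-led cells. The log2 change in the somatostatin-led class was -3.65, with adjusted p of 2.27e-09, and no other member apart from Sytl4 differed as far between endocrine classes in that contrast. Glucagon-led cells did not differ from insulin-led cells in Cadps by the test (log2 change -0.22, adjusted p of 0.0955). The lower level in PP-led cells, a log2 change of -0.56, no longer passed without cells that held another hormone at 5% (-0.04) or with the leading hormone at 20% of UMIs (-0.18).

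Rims2, a RIM scaffold that binds Rab3 and calcium channels, was at 58.2 and 71.9 CPM in insulin-led and at 91.8 and 92.4 in glucagon-led cells, where the log2 change was 0.45 with adjusted p of 1.08e-03. Rimbp2, which links RIM to calcium channels, passed in no endocrine contrast, with 103 to 144 CPM over the 4 endocrine classes. Of the Munc13 genes, Unc13b was at 25.6 and 26.2 in insulin-led and 16.8 and 18.5 in PP-led cells, a log2 change of -0.68, and Unc13a at 19.9 and 25.7 in insulin-led and 32.4 and 32.4 in PP-led cells, a log2 change of 0.38. The Unc13a call was lost with DESeq2, without the filter on low counts or with no upper limit on UMIs, at changes of 0.30 to 0.40. Cplx2, a complexin that clamps and then supports fusion, was at 253 and 341 CPM in insulin-led and 359 and 418 in somatostatin-led cells, a log2 change of 0.24 with adjusted p of 0.027, lost without the filter on low counts (0.12).

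The SNARE genes did not share an order of classes. Snap25, Vamp2 and Stx1a encode the complex that drives fusion of granules. Snap25 was at 146 and 181 CPM in insulin-led, 121 and 133 in glucagon-led and 114 and 134 in somatostatin-led cells, with log2 changes of -0.42 and -0.55. Vamp2 was at 154 and 161 in insulin-led and 130.1 and 127 in glucagon-led cells, a log2 change of -0.36, and did not pass in somatostatin-led cells, at 165 and 158. Stx1a ran the other way. Its level was 10.6 in both libraries in insulin-led cells, 24.5 and 21.5 in glucagon-led, 22.7 and 32.9 in somatostatin-led and 35.8 and 29.1 in PP-led cells. Insulin-led cells were lowest in both libraries, and the log2 changes were 1.05, 1.22 and 1.47, with adjusted p of 7.71e-06, 1.41e-04 and 7.85e-07.

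The more widely used SNAREs followed no single order. Stx4a, a plasma membrane syntaxin, was at 34.3 and 38.6 CPM in insulin-led and between 46.3 and 56.9 in the other endocrine classes, with log2 changes of 0.31, 0.43 and 0.25. The PP-led call was lost in 6 settings, at 0.17 to 0.27, and the somatostatin-led call without the filter on low counts, at 0.30. Snap23 and Vamp3, relatives of Snap25 and Vamp2 found in many tissues, were lower in all 3 classes than in insulin-led cells. Snap23 was at 24.4 and 21.7 in insulin-led and 15.2 and 15.8 in glucagon-led cells, and its somatostatin-led call was lost with DESeq2, at -0.54. Vamp3, which shares a stretch of its strand with Camta1, so that reads of both may be mixed, was at 94.2 and 85.3 in insulin-led and 60.6 and 61.0 in somatostatin-led cells. Vamp8 and Stx6, of endosomal and Golgi routes, had log2 changes of -0.23 to 0.06 and -0.35 to -0.20, and passed only in glucagon-led and PP-led cells, respectively. The Stx6 call was lost with DESeq2 (-0.33) and with the leading hormone at 20% (-0.29).

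**Figure D2:**
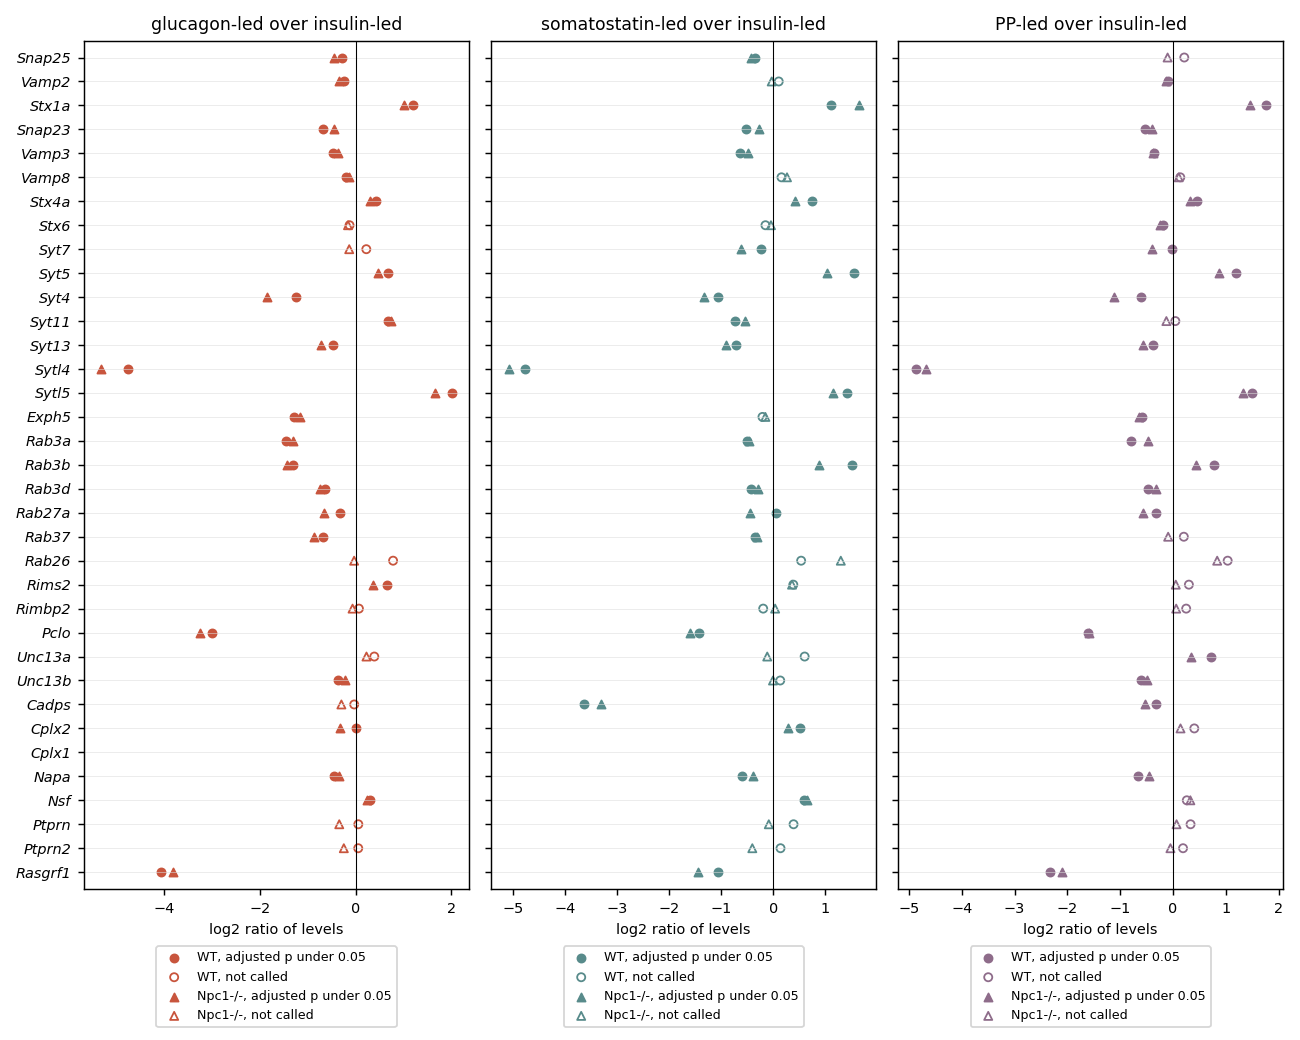
Log2 ratio of each gene's level in glucagon-led, somatostatin-led and PP-led cells over insulin-led cells of the same library (circles WT, triangles Npc1-/-), with filled symbols where the edgeR test over both libraries passed an adjusted p of 0.05. Sytl4 lies near -5 in all 3 panels, Cadps near -3.5 in somatostatin-led cells only, and Stx1a and Sytl5 above 1 throughout.

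Among the synaptotagmins, Syt4 and Syt13 were lower in all 3 other endocrine classes than in insulin-led cells. Syt4 lacks the calcium binding of its relatives and is known to set how much calcium a maturing β cell needs for release. It was at 87.8 and 127 CPM in insulin-led, 36.9 and 35.2 in glucagon-led, 41.6 and 50.5 in somatostatin-led and 57.4 and 58.4 in PP-led cells. The log2 changes were -1.62, -1.36 and -1.02, with adjusted p of 1.21e-08, 3.58e-06 and 4.87e-06. Syt13, an atypical synaptotagmin of endocrine cells, was at 555 and 663 in insulin-led cells and at 336 to 449.8 in the other endocrine classes, with log2 changes of -0.66, -0.97 and -0.61.

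Syt5 and Syt11 were not highest in insulin-led cells. Syt5, a calcium-binding synaptotagmin of granules, was at 41.5 and 42.4 CPM in insulin-led and 122 and 86.3 in somatostatin-led cells, a log2 change of 1.16 with adjusted p of 5.50e-06. It was at 66.0 and 58.9 in glucagon-led and 94.2 and 77.4 in PP-led cells, with log2 changes of 0.51 and 0.89. Syt11, which does not bind calcium, was at 38.2 and 32.2 in insulin-led, 61.2 and 53.7 in glucagon-led and 22.7 and 21.7 in somatostatin-led cells, so that its log2 change was 0.65 in one direction and -0.82 in the other. Syt7, the high-affinity calcium sensor of insulin and glucagon granules, was at 163 and 222 in insulin-led and 190.2 and 202 in glucagon-led cells. Its log2 change in glucagon-led cells was -0.02 and did not pass, and in somatostatin-led cells it was -0.58.

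The Rab GTPases were lower in glucagon-led than in insulin-led cells for 5 of the 6 tested. In this contrast 19 of all 34 members tested and 25.4% of all genes were lower. Rab3a, which marks granules ready for release, was at 217 and 181 CPM in insulin-led and 79.0 and 73.0 in glucagon-led cells, a log2 change of -1.45 with adjusted p of 6.51e-09. Rab27a, Rab3d and Rab37 were lower there too, with log2 changes of -0.56, -0.75 and -0.84. Rab3b was lower in glucagon-led and higher in somatostatin-led cells. It was at 82.2 and 118 CPM in insulin-led, 33.1 and 43.6 in glucagon-led, 235 and 216 in somatostatin-led and 141 and 159.6 in PP-led cells. The log2 change was -1.44 in glucagon-led and 1.05 in somatostatin-led cells, with adjusted p of 3.11e-07 and 2.07e-05. In PP-led cells it was 0.47. It fell to 0.0007 without cells holding another hormone at 5% and to 0.09 with the leading hormone at 20% of UMIs. It did not pass in either setting, nor with DESeq2 (0.49). Rab26, which overlaps Traf7 on its strand, rested on 3 to 34 UMIs per class and library and did not pass.

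Ptprn and Ptprn2, which encode the granule membrane proteins IA-2 and phogrin, passed in no endocrine contrast. Ptprn ranged from 157 to 246 CPM and Ptprn2 from 120.1 to 163 over the endocrine classes. Of the factors that take SNARE complexes apart after fusion, Napa (α-SNAP) was at 253 and 246 in insulin-led cells and at 159.9 to 192 in the other endocrine classes, with log2 changes of -0.47, -0.65 and -0.69. Nsf, the ATPase it recruits, was at 45.9 and 44.2 in insulin-led and 69.0 and 69.3 in somatostatin-led cells, a log2 change of 0.46 with adjusted p of 2.59e-03. Its smaller change in glucagon-led cells, 0.21, lost its call with DESeq2 and in 4 other settings, at 0.17 to 0.23.

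Rasgrf1 encodes an exchange factor that turns calcium signals into Ras and Rac activity. It was at 137 and 145 CPM in insulin-led, 8.18 and 10.2 in glucagon-led, 64.8 and 52.8 in somatostatin-led and 27.0 and 33.8 in PP-led cells. The 4 classes did not overlap in either library. The log2 change was -4.00, -1.40 and -2.34, with adjusted p of 1.78e-12, 4.07e-07 and 5.99e-10.

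In endothelial cells most members were far below their level in insulin-led cells. Of the 34 members tested, 26 were lower and 5 higher than in insulin-led cells, where 40.6% of all genes were lower and 35.6% higher. The median log2 change was -3.84 over the members and -0.10 over all genes. The 5 higher members were all SNAREs, namely Snap23 (58.5 and 57.1 CPM, log2 change 1.42), Vamp3 (156 and 157, 0.89), Stx4a (65.0 and 62.0, 0.89), Stx1a (19.0 and 17.9, 0.89) and Stx6 (81.1 and 67.0, 0.54). Vamp8, Nsf and Rab26 did not pass. Vamp8 was at 177 and 186 in endothelial and 192 and 195 in insulin-led cells.

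Free RNA from broken islet cells gives some UMIs in every droplet, and its size was read from insulin transcripts in endothelial cells. Ins1 and Ins2 there had 3.06% of their insulin-led share of UMIs in WT and 1.78% in Npc1-/-. Within 2 times of that value, or below it, were 6 members in WT and 10 in Npc1-/-, 2 of them at or below it in each library. The latter were Sytl5 and Cplx1 in WT, both at 0 UMIs, and Syt5 and Cplx1 in Npc1-/-. Rasgrf1 was at 3.79% and 3.02%, Syt4 at 5.35% and 3.71%, and Pclo at 6.03% and 3.34%. Vamp2 at 45.8% and 56.3% and Rab3a at 42.8% and 51.5% stood well above it. The plot of endothelial shares shows the members spread from below the insulin lines to beyond 100%.

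**Figure D3:**
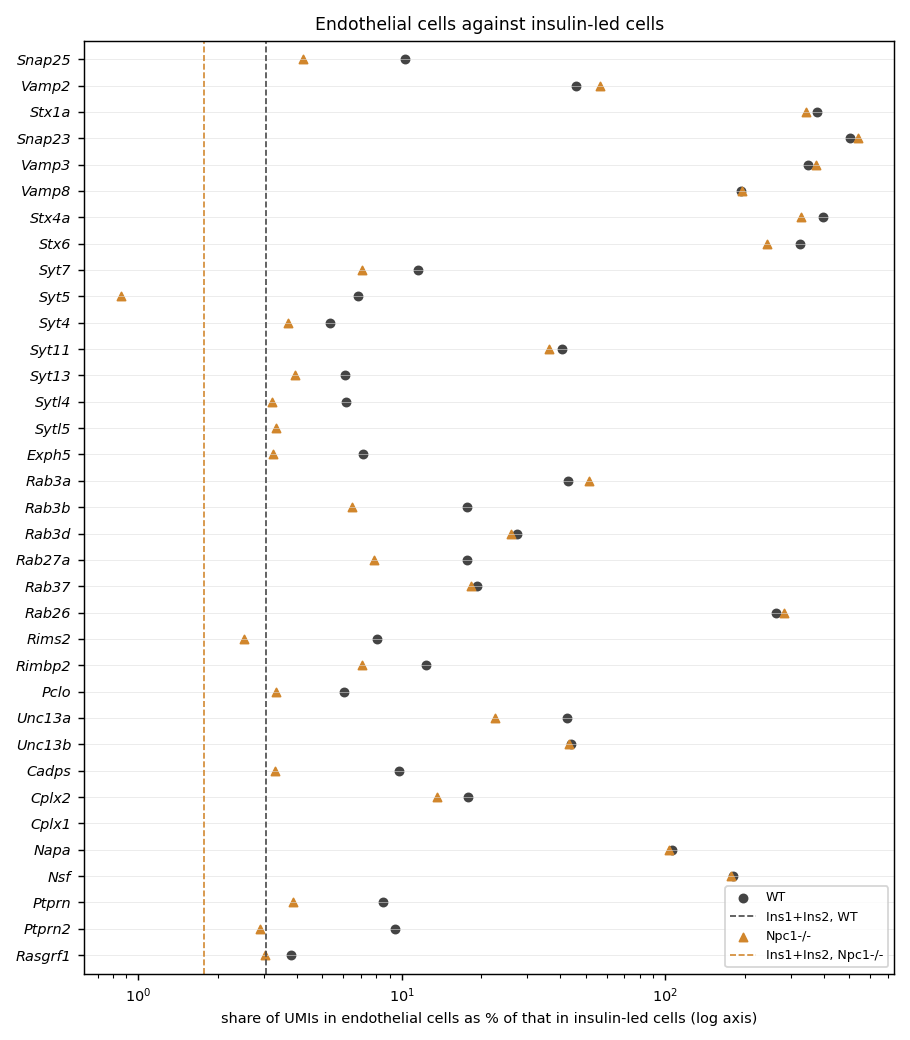
Share of UMIs of each gene in endothelial cells, as a percentage of its share in insulin-led cells of the same library, on a log axis (circles WT, triangles Npc1-/-), with dashed lines for Ins1 and Ins2 together. Sytl4 is at 6.13% and 3.21% and Snap23 at 502% and 537%. Values of 0 UMIs are not drawn.

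Insulin-led cells were then split by their share of Ppy and Pyy, the hormone genes of pancreatic polypeptide cells. PP-low cells, with under 1% of UMIs from these genes, numbered 1342 in WT and 1005 in Npc1-/-, and PP-rich cells 491 and 821. In the edgeR test 2 of 34 members were higher in PP-rich cells and 2 lower, beside 4.45% and 3.92% of all genes, and the member median was -0.08 against -0.01 over all genes. Sytl4 was at 264 and 229.6 CPM in PP-low and 107 and 96.3 in PP-rich cells, a log2 change of -1.32 with adjusted p of 2.7e-06. Rasgrf1 was at 148 and 161 in PP-low and 105 and 125 in PP-rich cells, a log2 change of -0.47 with adjusted p of 3.83e-03. Stx1a was at 8.57 and 7.20 in PP-low and 16.3 and 14.8 in PP-rich cells, a log2 change of 0.93 with adjusted p of 1.04e-03. Rab3b was at 70.1 and 96.3 in PP-low and 116 and 144 in PP-rich cells, a log2 change of 0.60 with adjusted p of 4.02e-03. For Sytl4, Rasgrf1 and Stx1a the direction was that of the PP-led class against insulin-led cells. For Rab3b it was so in the main setting. The PP-led difference did not pass without cells holding another hormone (0.0007), with the leading hormone at 20% (0.09) or with DESeq2 (0.49).

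For Sytl4 the summed level fell from bin to bin on both sides of the 1% split. Whether single cells changed by degrees was not tested. In bins of Ppy and Pyy share, Sytl4 in WT was at 281 CPM under 0.5%, 196 from 0.5 to 1%, 134 from 1 to 2%, 91.4 from 2 to 5% and 68.5 at 5% or more. In Npc1-/- it was at 248, 179, 131, 85.0 and 56.3 in the same bins. Rasgrf1 went from 150.4 to 58.4 in WT and from 166 to 91.6 in Npc1-/-, falling at every step in both. Rab3b climbed at every step, from 67.0 to 128 in WT and from 91.9 to 156 in Npc1-/-, and Stx1a from 8.23 to 20.1 and from 7.02 to 18.4. The steps were uneven. Stx1a in Npc1-/- was at 7.02 under 0.5%, 7.70 from 0.5 to 1% and 12.5 from 1 to 2%. Rab3b in WT was at 82.2 from 0.5 to 1%, 113 from 1 to 2% and 115 from 2 to 5%. No other member kept 1 direction over all 5 bins in both libraries. The bins hold the same cells and the same measure as the split above, and the order was not checked over all genes. Median depth was 32061 UMIs in the lowest and 29574 in the highest bin in WT, and 32763 and 26676 in Npc1-/-.

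**Figure D4:**
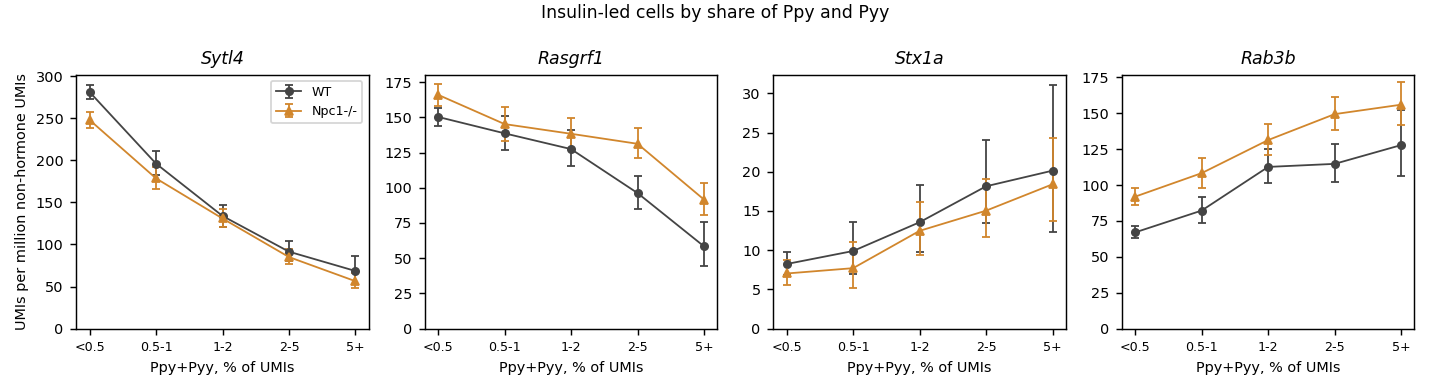
Level of 4 genes in insulin-led cells, in CPM, in 5 bins of the share of Ppy and Pyy (under 0.5, 0.5 to 1, 1 to 2, 2 to 5 and at least 5% of UMIs), with exact Poisson 95% intervals for counting error. Sytl4 and Rasgrf1 decline and Stx1a and Rab3b climb from bin to bin in WT (circles) and Npc1-/- (triangles).

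PP-rich cells can hold cells captured together. Another hormone took 5% or more of UMIs in 17.9% of PP-rich cells in WT and 23.0% in Npc1-/-, against 1.12% and 0.796% of PP-low cells. Ppy and Pyy count here as another hormone, and PP-low cells cannot hold them at 5%. This contrast therefore follows in part from the split itself. In WT, 61 of the 88 such PP-rich cells were those of the highest bin of Ppy and Pyy share. High doublet scores were given to 88 of 491 PP-rich cells in WT and 92 of 821 in Npc1-/-. Among PP-low cells they were given to 59 of 1342 and 36 of 1005. Without cells holding another hormone at 5%, Sytl4 was still lower in PP-rich cells, by a log2 change of -1.18, and Rasgrf1, at -0.34, did not pass. That setting also takes out the whole highest bin of Ppy and Pyy share, so it does not bear on cells captured together alone. Without the high doublet scores the changes were -1.31 and -0.42, and both passed. The Sytl4 order also held within each library, at -1.30 in WT and -1.25 in Npc1-/-. Mlph and Rims3 of the wider list were lower in PP-rich cells too, with log2 changes of -0.91 and -0.69.

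Between genotypes, each ratio below is the level in Npc1-/- over WT on the log2 scale, relative to the median gene of the same class with 5 CPM or more in either library, with a 95% interval for counting error only. The median gene itself lay at 0.07 in insulin-led and 0.02 in glucagon-led cells before it was subtracted. A member was counted as apart at 1.3-fold or more. In insulin-led cells 2 of 33 members were higher by this measure, Syt4 and Rab3b, and 1 was lower, Sytl4, where 6.22% of all genes were higher and 5.14% lower. These counts were near the background. Of the genes past 1.3-fold 54.8% were higher, and 84.4% when all UMIs were used without the median gene. The median member ratio was 0.10.

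Syt4 was at 87.8 CPM in WT and 127 in Npc1-/- insulin-led cells, a relative log2 ratio of 0.47 (0.39 to 0.54). The ratio was 0.52 (0.42 to 0.61) in PP-low cells and 0.50 (0.35 to 0.64) in PP-rich cells, so that the difference was as large in both. In cells thinned to 5000 UMIs, a Syt4 UMI was in 16.4% of insulin-led cells in WT (14.7 to 18.2) and 24.6% in Npc1-/- (22.6 to 26.7), against 1.01% and 1.19% of endothelial cells. Before thinning the shares were 56.4% and 70.2%. In glucagon-led cells the Syt4 ratio was -0.09 (-0.29 to 0.11), and the difference between classes was not tested.

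Sytl4 was lower in the Npc1-/- library in insulin-led cells, with a ratio of -0.46 (-0.51 to -0.40). Within PP-low cells it was -0.26 (-0.33 to -0.20) and within PP-rich cells -0.21 (-0.34 to -0.07), under 1.3-fold in both. In each of the 5 bins of Ppy and Pyy share Sytl4 was lower in Npc1-/- than in WT, from 281 and 248 CPM in the lowest bin, through 134 and 131 from 1 to 2%, to 68.5 and 56.3 in the highest. The Poisson intervals of WT and Npc1-/- were apart in the lowest bin (273 to 290 and 239 to 258). They overlapped in the bins from 0.5 to 5%. In the highest bin the Npc1-/- level of 56.3 lay within the WT interval (53.2 to 86.8). PP-rich cells were 491 of 1833 insulin-led cells in WT and 821 of 1826 in Npc1-/-, and the part of these shares in the ratio over all insulin-led cells was not tested. In glucagon-led cells the ratio was -0.97 (-1.51 to -0.47), on 100 and 48 UMIs. Sytl4 there was at 5.21% and 3.38% of its insulin-led share of UMIs, above the 2.07% and 1.495% of Ins1 and Ins2, which were also lower in the Npc1-/- library.

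Other members with intervals away from 0 in insulin-led cells were Rab3b at 0.45 (0.37 to 0.53), Syt7 at 0.38 (0.32 to 0.43), Cplx2 at 0.37 (0.32 to 0.41), Ptprn2 at 0.37 (0.31 to 0.44), Rab27a at 0.31 (0.24 to 0.39), Snap25 at 0.24 (0.18 to 0.31) and Pclo at 0.21 (0.17 to 0.26). On the lower side were Rab3a at -0.34 and Syt11 at -0.32 (-0.45 to -0.18), with Snap23 at -0.24 and Vamp3 at -0.21. In all, 15 intervals lay above 0 and 8 below it. Such intervals were not counted over all genes, so these counts are not a result about the members as a set. An interval away from 0 says that the libraries differed beyond counting error, and not that the genotypes did.

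**Figure D5:**
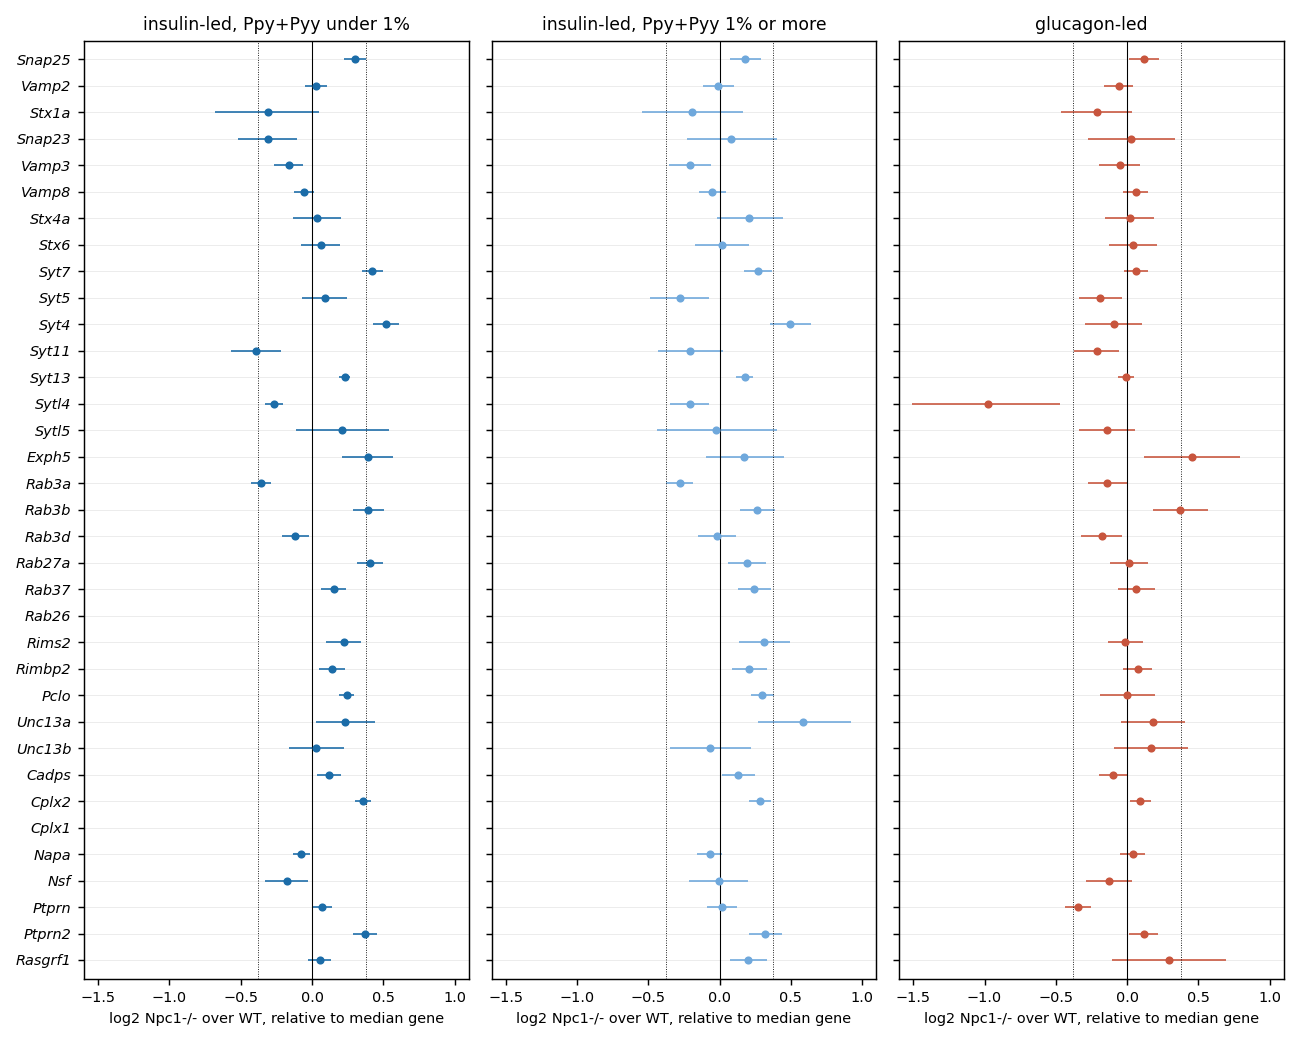
Log2 ratio of each gene's level in Npc1-/- over WT, relative to the median gene, in PP-low and PP-rich insulin-led cells and in glucagon-led cells, with 95% intervals for counting error and dotted lines at 1.3-fold. Syt4 lies right of the dotted line in both insulin-led groups and at -0.09 in glucagon-led cells.

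In PP-low insulin-led cells 5 of 33 members were 1.3-fold higher or more, Rab3b, Exph5, Rab27a, Syt4 and Syt7, beside 7.44% of all genes, and 1 was lower, Syt11, beside 6.35%. In PP-rich cells 2 were higher, Unc13a and Syt4, beside 8.74%, and 0 were lower, beside 5.92%. Unc13a was at 16.2 and 25.3 CPM there, a ratio of 0.59 (0.27 to 0.92). In glucagon-led cells 1 was higher, Exph5, beside 3.69%, and 1 lower, Sytl4, beside 3.76%. Ptprn in glucagon-led cells was at 195 and 157 CPM, and its ratio was -0.34 (-0.43 to -0.25), just under the 1.3-fold line.

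The smaller classes gave wider intervals. In somatostatin-led cells 4 members were higher, Rimbp2, Stx1a, Cadps and Exph5, beside 14.4% of all genes, and 3 lower, Ptprn, Sytl4 and Syt5, beside 13.3%. Only 3 member intervals lay above 0 in this class, those of Rimbp2, Rab37 and Cplx2. Below 0 lay 2, those of Ptprn and Syt5, with no such count made over all genes. The intervals of Stx1a, Cadps, Exph5 and Sytl4 held 0, and Sytl4 rested on 15 UMIs in WT and 8 in Npc1-/-. Syt5 was at 122 and 86.3 CPM, a ratio of -0.51 (-0.82 to -0.21). In PP-led cells 0 members were higher, beside 7.87% of all genes, and 1 was lower, Syt11, beside 7.87% as well. The share of all genes past 1.3-fold was largest in the smallest class.

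Other measures differed between the libraries beside these ratios. The summed level of 5 stress genes (Fos, Jun, Hspa1a, Hspa1b and Dnajb1) was 1229 CPM in WT and 353 in Npc1-/- insulin-led cells, and 2317 and 1065 in glucagon-led cells. The summed level of 6 acinar genes was 196 and 45.0 in insulin-led cells, and none of them was at 0. The order was the reverse in glucagon-led (37.6 and 51.3), somatostatin-led (33.7 and 68.1) and PP-led cells (37.4 and 51.3). In endothelial cells the acinar sum was 67.9 and 53.0. Median UMIs per cell were 17144 and 19110 in glucagon-led cells. Cells in which the stress genes took 0.5% of UMIs or more numbered 9 of 1833 in WT and 0 of 1826 in Npc1-/- for insulin-led cells, too few for their removal to bear on this difference. The part of the stress genes and of the acinar RNA in the ratios was not tested.

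A wider list of 109 other exocytosis genes was measured in the same way, as a description of the pathway around the members. In glucagon-led cells 23 of 98 tested were higher than in insulin-led cells and 36 lower, beside 24.4% and 25.4% of all genes. In somatostatin-led cells 17 were higher and 25 lower, beside 17.5% and 17.9%, and in PP-led cells 20 and 30, beside 19.8% and 20.7%. In endothelial cells 22 were higher and 58 lower, beside 35.6% and 40.6%, and in PP-rich cells 7 and 8 of 99, beside 4.45% and 3.92%. The counts of higher genes in glucagon-led, somatostatin-led and PP-led cells were near the background. Mlph, which ties Rab27a to myosin, was at 4.14 and 8.81 CPM in insulin-led cells and at 0.448 or less in the other classes, with log2 changes of -6.08 in glucagon-led and -4.19 in PP-led cells. Rims3, a short RIM protein, was at 49.6 and 52.8 in insulin-led and 2.40 and 2.30 in glucagon-led cells, a log2 change of -4.50. Madd, an exchange factor for Rab3, was lower in all 3 endocrine classes, with log2 changes of -1.37, -1.53 and -1.65. Sytl2 and Rab3il1 of the same list were higher in glucagon-led cells, and Rims1 in somatostatin-led and PP-led cells.

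In the other direction, Rab27b, Rab3c and Syt1 were each at 2.70 CPM or less in insulin-led cells. Rab27b was at 4.63 and 7.71 in glucagon-led cells, a log2 change of 3.29, and Rab3c at 31.3 and 40.7, a change of 3.78. Sytl2, another Rab27 effector, was at 28.0 and 29.2 in glucagon-led and at 0.704 or less in insulin-led cells, a log2 change of 5.59. Syt1, the fast calcium sensor of synapses, was at 45.8 and 39.3 in somatostatin-led cells, a change of 4.46. Rab27b, Sytl2 and Sytl5 were thus higher in glucagon-led cells, and Sytl4, Mlph and Rab27a lower, than in insulin-led cells. Endothelial cells were highest in Vamp5, at 497 and 489 CPM, a log2 change of 6.95.

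Between genotypes in insulin-led cells, 8 of the 75 wider genes with enough UMIs were 1.3-fold higher or more in Npc1-/- and 2 lower, Stxbp5l and Sytl1, beside 6.22% and 5.14% of all genes. Mlph was at 4.14 and 8.81 CPM, a relative log2 ratio of 1.02 (0.68 to 1.37), on 106 and 232 UMIs. Exoc7, a subunit of the exocyst that tethers vesicles, was at 96.5 and 136, a ratio of 0.42 (0.35 to 0.50). Stxbp5l, a tomosyn that restrains SNARE assembly, was at 34.2 and 27.5 in insulin-led cells, a ratio of -0.38 (-0.53 to -0.24), and at 57.1 and 38.8 in glucagon-led cells, a ratio of -0.58 (-0.76 to -0.40).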

How the data were processed

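Islet cells were profiled with 10x Genomics 3′ chemistry, 1 library per genotype. The deposited values are unnormalized UMI counts of called cells. The submitters' processing notes name Cell Ranger 3.1.0, Seurat 4.0.3 and mm10. A molecule is counted once at its 3′ end, so that gene length does not enter the count. The labels give the v3 kit.

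All later steps were run here with Python 3.11.15 and R 4.3.3. Barcodes with more than 1000 genes, under 50000 UMIs, under 10% mitochondrial and at most 0.1% haemoglobin UMIs were kept. Doublets were kept, and Scrublet scores (scanpy 1.11.5, at 0.8% per 1000 barcodes) were used in an alternative. UMIs were summed per class and library, without Ins1, Ins2, Gcg, Sst, Ppy and Pyy, which choose the classes. Classes were compared with edgeR 4.0.16 (quasi-likelihood, TMM, class and library as terms), and DESeq2 1.42.0 was an alternative. Genotype ratios added 0.5 counts, used genes with 5 CPM or more in either library and have conditional binomial intervals. The procedures were run on simulated counts in which nearly all genes were equal between groups. That setting is simpler than these data and does not show how the tests perform here. The exact intervals and floors (3 counts) cover counting error only. The members and lists were chosen with earlier results of these data known. Named were members with 20 CPM or more in an endocrine class in both libraries and, of the wider list, up to 5 genes per contrast and direction. Exoc7, Stxbp5l and the genotype ratio of Mlph were picked out after their values were seen.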

Additional observations from a re-analysis of the deposited data

Results flagged for a closer look

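Napa lay on opposite sides of the median gene in different classes. Its relative log2 ratio of Npc1-/- over WT was 0.17 (0.04 to 0.31) in PP-led cells and -0.11 (-0.16 to -0.06) in insulin-led cells. The difference between these classes was not tested, since each genotype has 1 library, and both ratios were under 1.3-fold. In PP-low and PP-rich insulin-led cells the ratio was -0.07 in each. Napa was at 160 CPM (159.9 to a decimal) in WT and 179.9 in Npc1-/- PP-led cells.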

How the results depend on the processing

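No paired analysis was possible because each genotype has 1 library, and the library is already the block of the class test. Of the members' class changes under the alternatives, 43 no longer passed, 12 newly passed and 2119 were counted as unchanged. Where a test was made, unchanged means the same side of the threshold, and the same direction for members that passed in the main setting. With 1 library alone no test was made, and only a change of sign was looked for. Sign changes of members that did not pass in the main setting were not counted. Of the changes that passed in the main setting, 2 changed sign, both with the WT library alone. These were Cplx2 in glucagon-led cells (0.0049, and -0.31 with the Npc1-/- library alone) and Rab27a in somatostatin-led cells (0.0491 and -0.44). Ratios from a single library carry no test and lack its TMM scaling, so a sign this near 0 is not on the scale of the test. DESeq2 called 3 members higher in PP-led cells, and in PP-rich against PP-low cells 7 members were lower with no filter on low counts and 1 without cells holding another hormone. Over all genes, PP-rich cells had 629 higher and 554 lower, against 706 and 1100 with no filter, 425 and 213 with DESeq2, 467 and 368 with the stricter cell filter, 412 and 460 without high doublet scores, and 267 and 334 without another hormone. Genes lower than in insulin-led cells numbered 3545, 2499 and 2896 in glucagon-led, somatostatin-led and PP-led cells, and 2306, 1631 and 1677 with DESeq2.

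Counts of members past 1.3-fold between genotypes are small and moved with the settings, the cause of which was not tested. Shares of all genes were not set beside the member counts below, so these are not read against a background. Over all genes in insulin-led cells, 650 were higher and 537 lower, and 1024 and 189 with all UMIs and no median gene. At 1.5-fold, 0 members were higher and 0 lower in insulin-led and PP-low cells, 1 was higher in PP-rich cells, 0 in glucagon-led cells, 0 higher and 1 lower in somatostatin-led cells, and 0 lower in PP-led cells. With all UMIs and no median gene, 8 were higher in insulin-led and PP-low cells, 6 in PP-rich, 2 in glucagon-led and 1 in PP-led cells, and 0 lower in insulin-led, PP-low and PP-led cells. With 20 CPM, 5 were higher in insulin-led cells, 0 lower in PP-low cells, and 0 higher and 0 lower in glucagon-led cells. With the mean over cells, 4 were higher in insulin-led cells, 3 lower in PP-low and 2 higher in glucagon-led cells. In PP-low cells 2 were lower with the stricter cell filter, 2 without high doublet scores and 0 with the leading hormone at 20%. With no upper limit on UMIs, 3 were higher and 0 lower in PP-low cells, and 2 higher in glucagon-led and in PP-led cells. With the split at 2%, 3 were higher and 0 lower in PP-low cells, and 4 higher and 1 lower in PP-rich cells. In glucagon-led cells 3 were higher with the stricter cell filter and 2 without high doublet scores, with the leading hormone at 20%, without endothelial markers or without stressed barcodes. In PP-led cells 2 were higher and 2 lower without another hormone, 1 higher without high doublet scores and 3 higher with the leading hormone at 20%.

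Somatostatin-led cells gave no value without another hormone or at 20%, because fewer than 50 cells were left. Shares of cells with a UMI moved with thinning in 520 of 560 comparisons. Of the genes past 1.3-fold, the share that was higher moved from 54.0% to 77.4% in PP-low, 59.6% to 84.2% in PP-rich and in PP-led cells from 872 higher and 872 lower genes to 66.5% with all UMIs.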
